A study of Mus musculus with 7 samples.

Results

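The loci of 7 immediate early genes were followed in a reporter assay of mouse DNase hypersensitive sites in P5424, a line of immature T cells from the mouse. The genes are Fos, Jun, Junb, Egr1, Egr2, Egr3 and Nr4a1. Each locus is a window of 100 kb to either side of 1 coordinate in build mm9: 86810000 on chromosome 12 for Fos, 94720000 on chromosome 4 for Jun, 87500000 on chromosome 8 for Junb, 35020000 on chromosome 18 for Egr1, 67000000 on chromosome 10 for Egr2, 70480000 on chromosome 14 for Egr3 and 101100000 on chromosome 15 for Nr4a1. Reads were counted in bins of 500 bp, and a bin was kept where each of 3 plasmid inputs held at least 50 reads. Of the 2800 bins in these windows, 1358 held a read and 67 were kept, of 29930 kept in the whole genome. Position within a locus is given below as the distance of a bin's centre from the coordinate of its gene. No mm9 gene annotation was used, so bins are not assigned to a promoter, exon or intron.

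CapStarr-seq captures chosen genomic fragments and clones them so that each is transcribed as part of its own reporter, and the RNA reads of a fragment over its plasmid reads give its output. The labels describe 7 samples of P5424 cells, each a group of 1 library: 4 reporter libraries and 3 inputs. The reporters carried the promoter of phosphoglycerate kinase (pPGK), super core promoter 1 (SCP1) or a promoter labelled pR-Ea, and the fourth was a pPGK library labelled PMA_I. PMA, a phorbol ester, switches on protein kinase C, while the ionophore ionomycin raises cytosolic calcium. The treatment field names both agents for every sample, so the stimulus was read from the title of the PMA_I library alone, and no dose or time is given. The labels give no genotype beyond the cell line and no RNA measurement of the genes themselves, so these values are the output of cloned fragments and not the expression of Fos or any other gene.

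Immediate early genes are transcribed within minutes of a signal, without new protein synthesis, from promoters and enhancers bound by factors already in the cell. In T cells the antigen receptor acts through protein kinase C, Ras and calcium, which PMA and ionomycin engage while bypassing the receptor. Fos, Jun and Junb encode subunits of the AP-1 transcription factor. Egr1, Egr2 and Egr3 encode zinc finger factors that act in thymocyte selection and T cell tolerance. Nr4a1 encodes the orphan nuclear receptor Nur77, which is widely used as a marker of antigen receptor signalling.

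The promoters of Fos and Junb are shown because the 2 loci they serve held the bins that differed most between the pPGK libraries. Each sequence runs 5′ to 3′ from 250 bases before to 50 after the RefSeq start, in build GRCm38.p6. That build is not the build of the reads, so neither sequence was placed in a bin. Capitals mark matches to the motifs searched.

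Fos promoter, chr12:85473640-85473939, plus strand: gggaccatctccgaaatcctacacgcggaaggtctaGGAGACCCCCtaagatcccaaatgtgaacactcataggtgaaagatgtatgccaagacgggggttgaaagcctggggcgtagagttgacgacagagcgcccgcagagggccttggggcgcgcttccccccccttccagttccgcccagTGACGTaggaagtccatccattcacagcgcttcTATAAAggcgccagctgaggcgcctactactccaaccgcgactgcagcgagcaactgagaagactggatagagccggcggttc

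Junb promoter, chr8:84978699-84978998, minus strand: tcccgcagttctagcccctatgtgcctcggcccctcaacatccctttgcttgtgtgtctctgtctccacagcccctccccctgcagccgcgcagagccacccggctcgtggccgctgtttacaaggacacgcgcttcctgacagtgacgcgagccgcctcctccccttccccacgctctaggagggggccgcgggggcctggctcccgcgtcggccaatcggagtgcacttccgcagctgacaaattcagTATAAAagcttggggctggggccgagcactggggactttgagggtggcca

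The motifs were searched on both strands. They were the cAMP response element TGACGTCA and its shorter core TGACGT, the AP-1 site TGAGTCA, the EGR site GCGNGGGCG, the ETS core CCGGAA, the NFAT core GGAAA, the TATA box TATAAA, and the CArG box and NF-kB site by their consensus. The core lies within every full cAMP response element. The Fos window held an NF-kB match, 1 cAMP response element core and 1 TATA box, in that order from 5′ to 3′. The Junb window held 1 TATA box. Of all 32851 promoters in the table, 8.46% held an NF-kB match, 7.51% the cAMP response element core and 13.6% the TATA box, so none of these matches is rare. A match is a run of letters and not a measured binding site. Of the 7 genes, 5 had an entry in the table.

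With 1 library in each group, no value below has a replicate check. Each difference is between libraries rather than conditions, and no p-value is given. The deposited files held 51450446 to 72217277 reporter reads and 18940646 to 45278192 input reads, and both pPGK libraries shared 1 input. Positions with a mapping quality below 30 in any file were left out. Over the genome this removed 35.64% of pPGK reporter reads but 9.903% of those of pPGK PMA_I, and in the 7 loci 9.65% and 5.136%. A bin of these loci held a median of 683 reporter reads with SCP1, 439 with pPGK, 509 in pPGK PMA_I and 409 with pR-Ea. Reads were scaled to each library's total over all 29930 bins. A bin was called higher or lower by size: a log2 ratio of at least 1 either way (2-fold), a 95% exact Clopper-Pearson interval that excludes equality, and at least 50 reads in the 2 counts. Intervals cover counting error only, since PCR copies are not independent molecules. A standard error over distinct fragment positions (SE) is given beside them.

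The loci were covered unevenly. Junb had 22 bins, Nr4a1 had 15, Egr1 had 11, Egr3 had 8, Fos had 7 and Jun had 4. Egr2 had 160 bins with a read and none that reached 50 input reads in all 3 inputs. The highest input count of any Egr2 bin was 313 for SCP1, 88 for pPGK and 47 for pR-Ea. At the edge of the input minimum, the Fos bin at -74.75 kb and the Egr1 bins at 0.25 and 94.75 kb fell just outside, with 46, 48 and 49 reads in their thinnest input, and log2 ratios of PMA_I over pPGK of 0.19, 0.38 and -0.33. Just inside were the Jun bin at -3.25 kb, with 51 reads and a log2 ratio of 0.36, and the Nr4a1 bin at -73.25 kb, with 53 reads and 0.10.

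The first comparison asks whether these sites gave more or less reporter RNA from the pPGK promoter in the library labelled PMA_I. Of the 67 bins, 2 were higher and 0 were lower. Over all bins 228 of 29930 (0.762%) were higher and 116 (0.388%) lower. One of the 2 bins lay near Fos and the other near Junb, both AP-1 genes. The remaining 65 bins ranged from -0.45 to 0.55 on the log2 scale, and 63 of the 67 were within 0.5 of no change. The median log2 ratio was 0.13 in these loci and 0.05 over all bins. Of the 67 bins 43 were above 0, against 16929 of all 29930. The split of all bins into higher and lower calls varied with the scaling and with other settings. Without the position with most reads in each bin, 235 bins of the genome were higher and 423 lower, and the loci had 2 and 1. With the quality minimum applied to each file on its own, the medians were -0.01 in the loci and -0.02 over all bins. With each library scaled to all its used reads, 113 bins of the genome were higher and 241 lower, and the medians moved to -0.03 in the loci and -0.10 over all bins. With the all-bin median set to 0, the split was 187 and 153. The loci had 2 bins higher and 0 lower under either of these scalings.

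**Figure D1:**
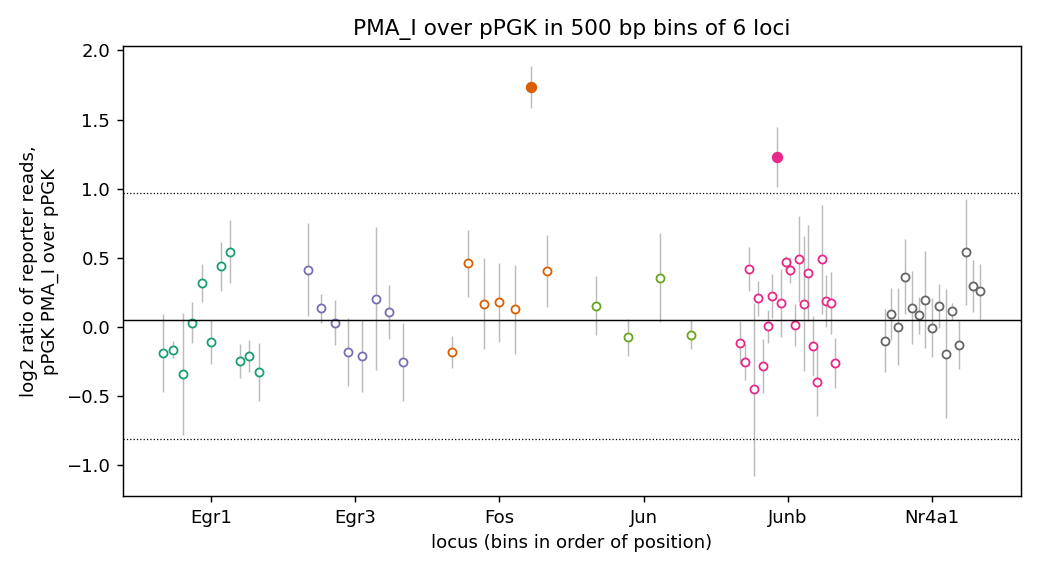
Log2 ratio of scaled reporter reads, pPGK PMA_I over pPGK (vertical axis), for each of the 67 bins in order of position within 6 loci (horizontal axis); bars are 1 SE over positions, filled points were called, the solid line is the median of all bins and the dotted lines their 1st and 99th percentiles (-0.81 and 0.97). The Fos bin at 1.74 and the Junb bin at 1.23 lie above the upper dotted line, and the other points lie between the dotted lines.

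The Fos bin covered 86815001 to 86815500 on chromosome 12, 5.25 kb from the coordinate. It held 110 reporter reads with SCP1, 42 with pPGK, 154 in pPGK PMA_I and 127 with pR-Ea, over inputs of 255, 67 and 86 reads for SCP1, pPGK and pR-Ea. In RPM (reads scaled to the library total over all bins), the reporter rose from 1.66 with pPGK to 5.62 in PMA_I. That is 3.33-fold, or 1.74 on the log2 scale (95% interval 1.26 to 2.29, SE 0.15), rank 20 of the 29930 bins. The value rests on few pPGK reads, and without PMA_I this fragment set gave less RNA than its share of the input: its log2 ratio of reporter to input was -1.93 (SE 0.24) with pPGK and -0.20 (SE 0.19) in PMA_I. The pPGK reads enter both of these values and the difference between them.

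The higher reads were spread over this Fos bin's fragments and both strands. Distinct reporter positions numbered 9 with pPGK and 14 in PMA_I, of which 6 were shared. After scaling, 14 positions held more reads in PMA_I and 3 held fewer. This tally includes positions with reads in 1 library alone, and positions are not replicates. The bin was singled out by its ratio, so the tally describes the bin and does not test it. The position with most reads held 13 reads with pPGK and 43 in PMA_I, and the other positions together went from 29 to 111. Plus-strand fragments went from 23 to 92 reads (log2 1.80) and minus-strand fragments from 19 to 62 (log2 1.51). By distinct positions alone, without their read numbers, the log2 ratio was 0.82 and the bin was not called.

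The Fos bin was the edge of a larger captured site. Its reads began 5.3 kb from the coordinate and ran into the next bin, which spans 86815501 to 86816000 and held 490 pPGK reads and 702 PMA_I reads (log2 0.40, SE 0.26). In steps of 100 bp, the Fos site had 0.51 and 1.79 RPM at 5.35 kb in pPGK and PMA_I, 1.15 and 3.83 at 5.45 kb, and 9.96 and 13.10 at 5.55 kb. The ratio was thus larger at the thin edge than where most reads lay. In bins of 1000 bp the site had a log2 ratio of 0.56 and was not called. The 2 bins of the neighbouring captured site, at 4.25 and 4.75 kb, had 0.18 (SE 0.29) and 0.13 (SE 0.32).

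The Junb bin covered 87500501 to 87501000 on chromosome 8, 0.75 kb from the coordinate. It held 919 reporter reads with SCP1, 532 with pPGK, 1353 in pPGK PMA_I and 790 with pR-Ea, over inputs of 1452, 321 and 411 reads. In RPM, the Junb reporter rose from 21.0 with pPGK to 49.4 in PMA_I. That is 2.35-fold, or 1.23 on the log2 scale (95% interval 1.09 to 1.38, SE 0.22), rank 103 of all bins. The Junb value rests on many more reads than the Fos value. Its log2 ratio of reporter to input went from -0.54 (SE 0.24) with pPGK to 0.69 (SE 0.16) in PMA_I, from below its share of the input to above it.

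In the Junb bin the reporter covered 43 positions with pPGK and 48 in PMA_I, with 28 shared. After scaling, 39 of the Junb positions held more reads in PMA_I and 24 fewer. Here too, positions with reads in 1 library alone are included. The leading position of each library held 68 reads with pPGK and 153 in PMA_I, and these were different positions. Without the position with most reads over both libraries together, the rest went from 487 to 1200. Plus-strand positions went from 256 to 621 reads (log2 1.12), minus-strand positions from 121 to 442 (log2 1.72), and positions listed on both strands from 155 to 290 (log2 0.95). By distinct positions the log2 ratio was 0.39 and the bin was not called.

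Within the Junb site the difference was concentrated toward 1 side. In steps of 100 bp, RPM went from 2.81 to 9.13 at 0.45 kb, which lies just outside the bin, and from 8.18 to 29.4 at 0.55 kb. They went from 6.88 to 13.0 at 0.65 kb, and at 0.75 kb they were 4.11 and 4.75. The next captured site of Junb, at 2.75 kb, had 610 reads with pPGK and 745 in PMA_I (log2 0.17, SE 0.25). In bins of 1000 bp, and in bins shifted by 250 bp, the Junb site remained called.

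**Figure D2:**
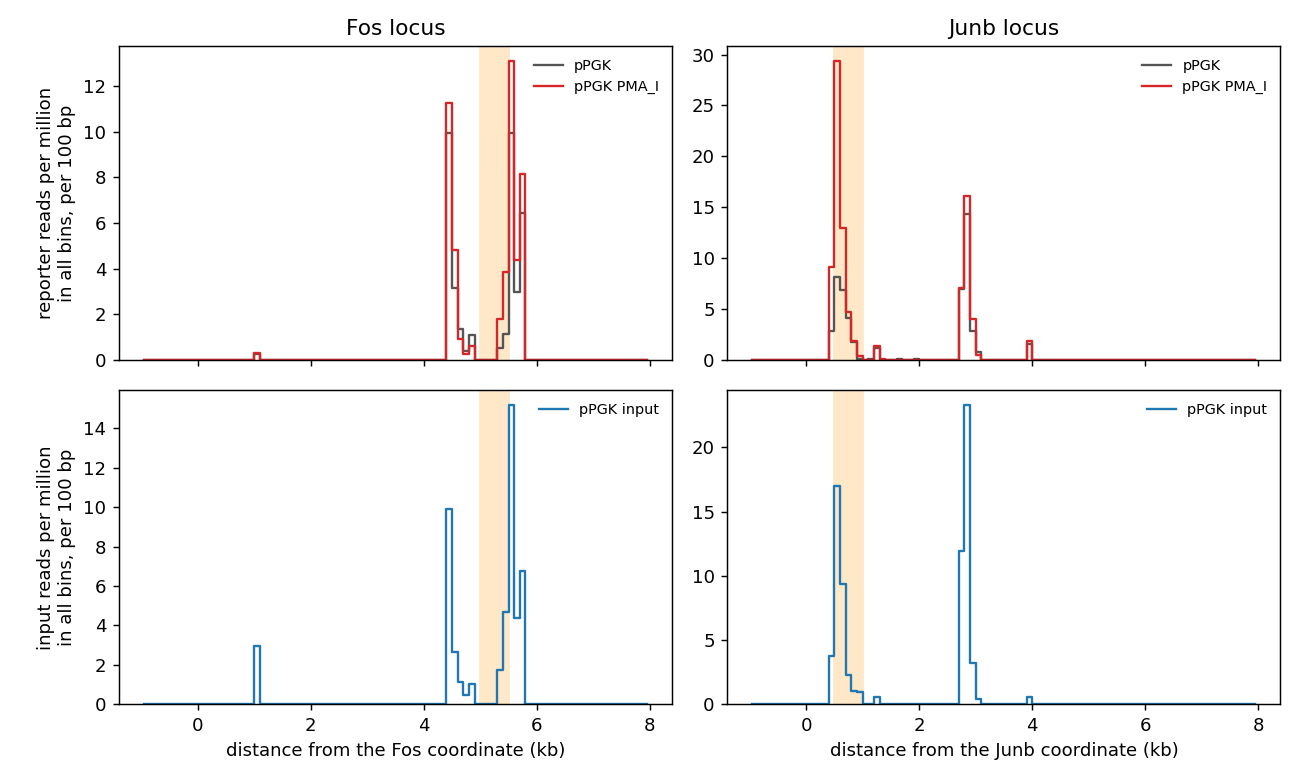
RPM in steps of 100 bp (vertical axes), against distance from the Fos and Junb coordinates in kb (horizontal axes); the upper panels show reporter reads of pPGK (grey) and pPGK PMA_I (red), the lower panels the shared pPGK input (blue), and shading marks the called bins. The red line stands far above the grey one at 0.55 kb in Junb, 29.4 against 8.18, while at Fos the shaded bin is the low left edge of a site.

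Away from these bins, the AP-1 loci showed small ratios. In the Fos locus the other 6 bins ranged from -0.18 at -94.75 kb to 0.46 at -32.75 kb, and 5 of them were above 0. Summed over its bins the Fos locus held 3045 reads with pPGK and 3636 in PMA_I, a log2 ratio of 0.14 (SE 0.09), or 0.10 without its called bin. Jun encodes the subunit that most often pairs with Fos. Its 4 bins lay at -74.75, -74.25, -3.25 and -2.75 kb, with log2 ratios of 0.16 (SE 0.21), -0.07 (SE 0.13), 0.36 (SE 0.32) and -0.06 (SE 0.11). The Jun sum was -0.01 (SE 0.08, 95% counting interval -0.07 to 0.06) between these libraries. Junb, whose product also forms AP-1, had a sum of 0.13 (SE 0.06), from 10303 to 12169 reads, and 0.03 without the called bin. Its other 21 bins ranged from -0.45 at -63.25 kb, with 100 and 79 reads, to 0.49 at 83.75 and 37.25 kb.

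In the Egr loci no bin was called. Egr1 had a median log2 ratio of -0.16 over 11 bins and a sum of -0.07 (SE 0.05). The bin nearest the Egr1 coordinate, at -0.25 kb, went from 1003 to 1357 reads, 0.32 (SE 0.14). A pair of captured sites downstream had the highest values of the Egr1 locus: 516 to 758 reads at 25.75 kb (log2 0.44, SE 0.18) and 550 to 870 at 28.25 kb (log2 0.55, SE 0.23). The lowest in Egr1 was -0.34 (SE 0.44), at -82.75 kb. Egr1 bins between -0.25 and 28.25 kb were therefore on both sides of the all-bin median, since the bin at 0.75 kb had 734 and 736 reads (log2 -0.11, SE 0.16).

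Egr3 had 8 bins with a median log2 ratio of 0.07 and a sum of 0.05 (SE 0.08). Its bin at -14.25 kb was the highest, from 352 to 509 reads (log2 0.42, SE 0.34), and the bin at 96.75 kb the lowest (log2 -0.25, SE 0.28). The Egr3 bins nearest the coordinate, at -3.25 and -2.75 kb, had 0.13 (SE 0.11) and 0.03 (SE 0.16). For Egr2, which encodes a factor induced by calcium signalling in T cells, the whole window held 1346 used pPGK reads and 1760 in PMA_I. Scaled to all used reads, its log2 ratio was 0.12 (95% counting interval 0.01 to 0.22, no SE computed). The windows of the other 6 genes ranged from -0.13 to 0.04, but they include kept bins, and all Egr2 reads lay outside kept bins. Over the genome, kept bins held 55.04% of used reporter reads with pPGK and 49.4% in PMA_I. Reads outside kept bins were thus a larger share of PMA_I, and the part of this in the Egr2 value was not tested.

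The Nr4a1 locus had the most reads of PMA_I after its bins were summed: 12384 with pPGK and 14704 in PMA_I, a log2 ratio of 0.13 (SE 0.05). Its bins ranged from -0.19 at -2.75 kb to 0.54 at 21.75 kb, where reads went from 439 to 693 (SE 0.38). The bin at -1.25 kb, nearest the Nr4a1 coordinate, held 6297 and 7379 reads and had a log2 ratio of 0.11 (SE 0.06). The sums of Fos, Junb and Nr4a1 did not keep their sign under every scaling: they were 0.09, 0.07 and 0.08 with the all-bin median set to 0, and -0.01, -0.03 and -0.02 when scaled to all used reads. No shift of a whole locus can be read from these sums. In the Nr4a1 window the quality rule also removed more of the pPGK reporter (20.76%) than of PMA_I (11.17%). The Nr4a1 sum was also computed under other quality filters, but the part of this removal in the reported sum was not tested.

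The ratio moved with how thinly a site was represented in the input. Over all bins the median log2 ratio of PMA_I over pPGK was 0.13 where the pPGK input held 50 to 99 reads, 0.10 at 100 to 199, 0.03 at 200 to 399 and -0.03 at 400 or more. The bins of the 7 loci had medians of 0.28 (16 bins), 0.17 (20 bins), 0.06 (18 bins) and -0.06 (13 bins) in the same classes. The called Fos bin had 67 input reads and the called Junb bin 321. Bins below input with pPGK were also called higher more often: 168 of 2850 over the genome, against 60 of 27080 other bins. The Fos bin was one of those below input, and the Junb bin was not. The same pPGK reads enter both the class and the ratio, and the part of this in the Fos value was not tested.

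**Figure D3:**
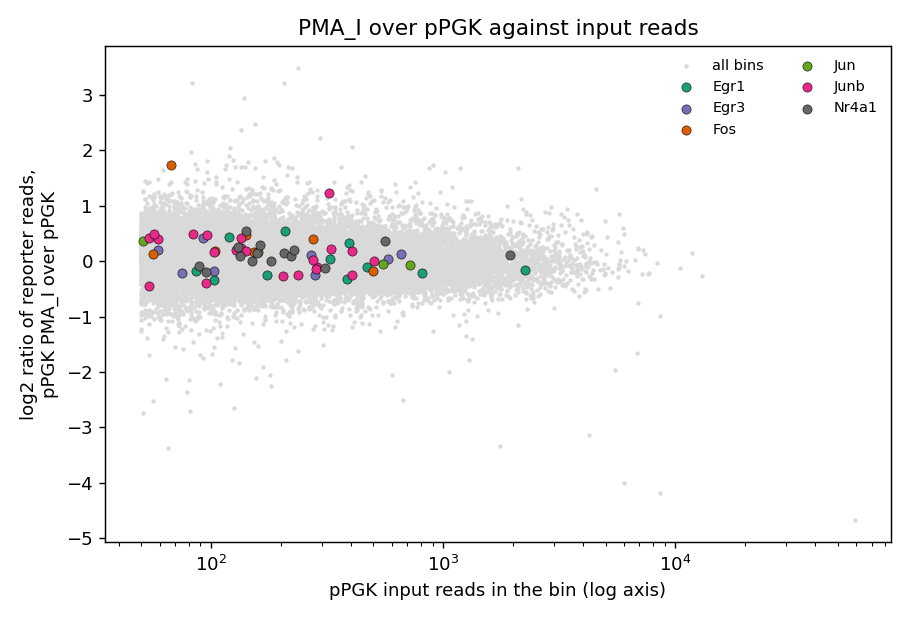
Log2 ratio of reporter reads, pPGK PMA_I over pPGK (vertical axis), against pPGK input reads in the bin (horizontal axis, log scale); grey points are all 29930 bins and coloured points the 67 bins of 6 loci. The Fos bin at 1.74 has 67 input reads, the Junb bin at 1.23 has 321, and the other coloured points lie within the grey cloud between -0.45 and 0.55.

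Activity, the log2 ratio of reporter to input reads, ranks these sites with each promoter. It is relative to the average of all captured bins, with no neutral insert as a baseline, so a value below 0 does not show silencing nor one above 0 enhancement. With SCP1, 2 of the 67 bins were at least 2-fold above input and 11 (16.4%) below, against 3.71% above and 14.4% below over all bins. With pPGK 0 were above and 2 below (3.76% and 9.52% of all bins). In pPGK PMA_I 2 were above and 1 below (7.39% and 9.32%), and with pR-Ea 0 were above and 2 below (0.782% and 8.08%). The share below input with SCP1 was near the genome's share, and the other shares were lower than those of all bins. Median activity in the loci was -0.11 with SCP1, -0.00 with pPGK, 0.11 in PMA_I and -0.06 with pR-Ea, close to the medians of all bins (-0.15, 0.06, 0.07 and -0.03). The splits varied with the scaling: with the all-bin median set to 0, SCP1 had 5 bins above and 8 below, and scaled to all used reads it had 3 and 8, while PMA_I had 0 and 4.

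**Figure D4:**
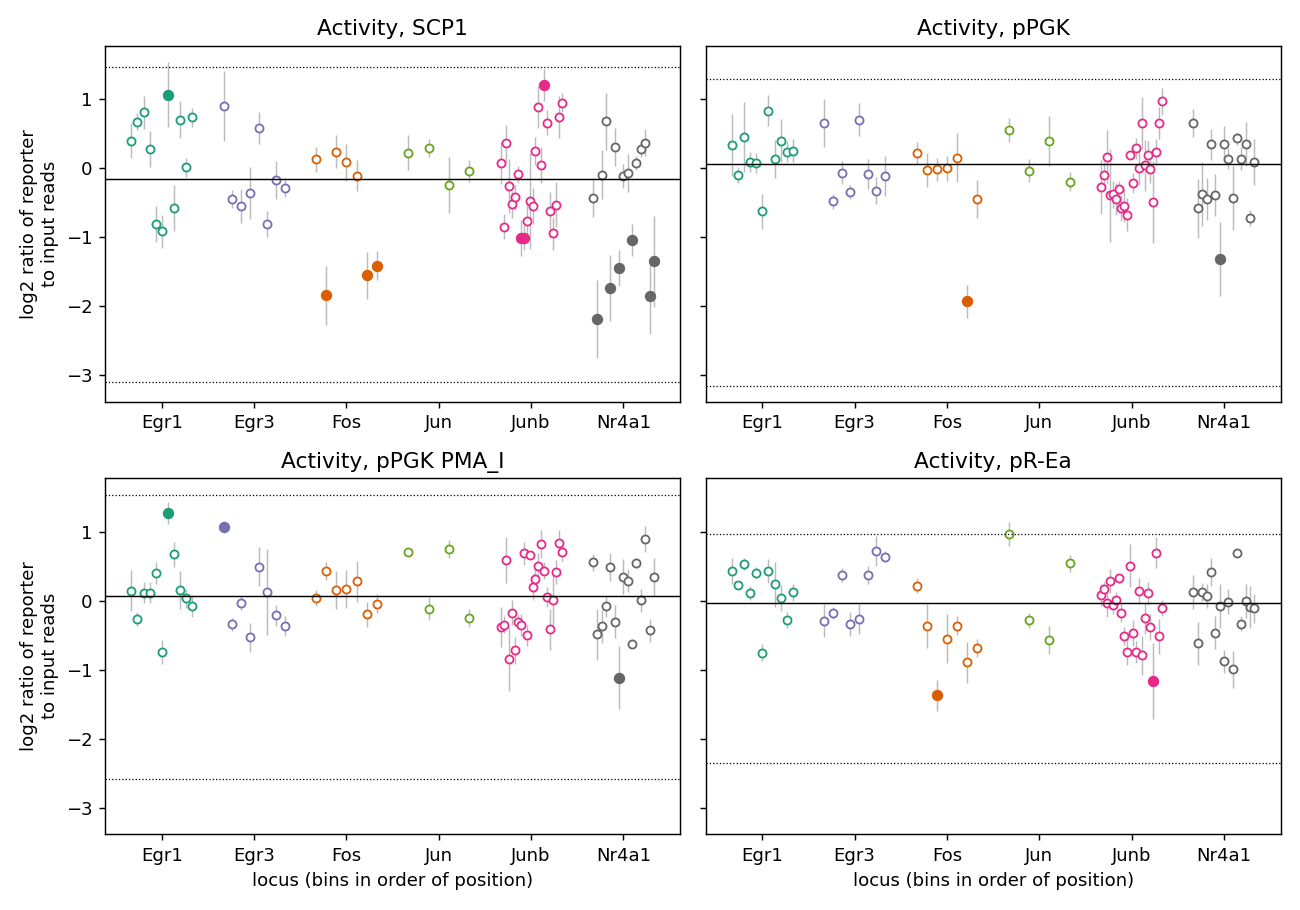
Activity, the log2 ratio of scaled reporter to input reads (vertical axes), for each of the 67 bins in order of position within 6 loci (horizontal axes), in 1 panel per reporter library; bars are 1 SE over positions, filled points were called, the solid line is the median of all bins and the dotted lines their 1st and 99th percentiles. The SCP1 panel has 6 filled Nr4a1 points between -2.19 and -1.05, and the pR-Ea panel none for Nr4a1.

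Nr4a1 held 6 of the 11 bins below input with SCP1. They lay at -73.25 kb (33 reporter and 121 input reads, log2 -2.19, SE 0.57), 56.75 kb (-1.86, SE 0.54), -34.25 kb (-1.74, SE 0.47), -15.25 kb (-1.45, SE 0.26), 58.75 kb (-1.35, SE 0.66) and -2.75 kb (-1.05, SE 0.23). Of these Nr4a1 bins, the one at -15.25 kb was also below input with pPGK (-1.32, SE 0.53) and in PMA_I (-1.12, SE 0.46), but was at -0.08 (SE 0.32) with pR-Ea. The bin at -1.25 kb, with the most reporter reads of the locus, had an activity of 0.07 for SCP1, 0.43 for pPGK, 0.55 for PMA_I and 0.69 for pR-Ea. Mapping quality removed more reads from this locus than from the others, 25.53% of the pPGK input and 6.623% of the SCP1 input, and its part in these values was not tested.

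At Fos, 3 of 7 bins were below input with SCP1: -1.84 (SE 0.43) at -32.75 kb, -1.55 (SE 0.34) at 5.25 kb and -1.41 (SE 0.21) at 5.75 kb. The bin at 5.25 kb was also below input with pPGK, as given above, and stood at -0.89 (SE 0.30) with pR-Ea. The bin at -13.75 kb was below input with pR-Ea alone (-1.37, SE 0.23), while SCP1 gave 0.24 (SE 0.24) and pPGK -0.02 (SE 0.17). The Jun locus had no called bin. Its bin at -74.75 kb came closest, at 0.97 (SE 0.18) for pR-Ea, 0.55 (SE 0.17) for pPGK and 0.23 (SE 0.26) for SCP1.

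At Junb the bin at 0.75 kb was below input with SCP1 (-1.01, SE 0.18) and stood at -0.51 (SE 0.13) with pR-Ea, close to its pPGK value without PMA_I. The bin at -29.75 kb was also below input with SCP1 (-1.01, SE 0.26). The bin at 50.75 kb was above input with SCP1 (2863 reporter and 975 input reads, log2 1.21, SE 0.24), while pPGK gave 0.04 (SE 0.37) and pR-Ea -0.25 (SE 0.22). The bin at 83.75 kb was below input with pR-Ea (-1.17, SE 0.55). Toward the end of the Junb window, the bin at 95.75 kb stood at -0.11 (SE 0.11) with pR-Ea, below 0.95 (SE 0.14) for SCP1 and 0.97 (SE 0.19) for pPGK.

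In the Egr loci the bin at 25.75 kb of Egr1 was above input with SCP1 (236 reporter and 88 input reads, log2 1.07, SE 0.47) and in PMA_I (1.28, SE 0.16). It stood at 0.84 (SE 0.23) for pPGK and at 0.43 (SE 0.18) for pR-Ea. The bin at 0.75 kb of Egr1 was low with every promoter without reaching the threshold, at -0.92 (SE 0.24), -0.63 (SE 0.25) and -0.75 (SE 0.13) with SCP1, pPGK and pR-Ea. At Egr3 the bin at -14.25 kb was above input in PMA_I (1.07, SE 0.09), with 0.65 (SE 0.35) in pPGK. No bin of the 7 loci was called the same way with all 3 promoters. The bins below input with both SCP1 and pPGK numbered 2, the Fos bin at 5.25 kb and the Nr4a1 bin at -15.25 kb. The matching shares of all bins were not computed, so neither count sets these loci apart.

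Promoters were compared by the difference of their activities in a bin, with a 95% interval from the SE over positions, and a call needed a difference of at least 1 and an interval without 0. For pPGK against SCP1, 5 bins were higher and 2 lower (8.07% and 2.63% of all bins). Those higher were the Fos bin at -32.75 kb (difference 1.82, interval 0.85 to 2.79) and Nr4a1 bins at -34.25 kb (2.08, interval 1.06 to 3.11), -73.25 kb (1.61), 56.75 kb (1.13) and -84.25 kb (1.09). Those lower were the Junb bin at 50.75 kb (-1.17) and the Nr4a1 bin at -42.75 kb (-1.13). With the all-bin median set to 0 the split was 3 and 3, and scaled to all used reads it was 2 and 4.

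For pR-Ea against SCP1, 9 bins were higher and 5 lower (9.22% and 5.57% of all bins). The Nr4a1 bins at -34.25 kb (2.16, interval 1.15 to 3.17), 56.75 kb (1.76), -73.25 kb (1.57) and -15.25 kb (1.37) were among those higher, with the Fos bin at -32.75 kb (1.47). The bin at -0.25 kb of Egr1 was higher by 1.21 (interval 0.68 to 1.75), where SCP1 gave -0.81 (SE 0.26) and pR-Ea 0.41 (SE 0.08). The others higher were Junb bins at 84.25 kb (1.23) and -72.75 kb (1.02) and the Egr3 bin at 87.75 kb (1.19). Those lower were the Fos bin at -13.75 kb (-1.61, interval -2.25 to -0.97), Junb bins at 50.75 kb (-1.46), 95.25 kb (-1.26) and 95.75 kb (-1.06), and the Egr3 bin at -14.25 kb (-1.18). The comparisons with pPGK and with pR-Ea share the SCP1 library, so bins in both lists rest on the same SCP1 values.

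For pR-Ea against pPGK, 3 bins were higher and 6 lower (5.35% and 6.47% of all bins). The Nr4a1 bin at -15.25 kb (1.24), the Egr3 bin at 96.25 kb (1.05) and the called Fos bin at 5.25 kb (1.04, interval 0.29 to 1.79) were higher with pR-Ea. Those lower were Junb bins at 49.25 kb (-1.45), 95.25 kb (-1.17), 95.75 kb (-1.08) and 14.75 kb (-1.03), the Fos bin at -13.75 kb (-1.35) and the Nr4a1 bin at -11.25 kb (-1.23). With the all-bin median set to 0 the split was 3 and 4, and scaled to all used reads it was 3 and 3. The Junb bin at 0.75 kb was called in none of the 3 promoter comparisons.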

How the data were processed

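Reporter output of cloned fragments was measured in 4 reporter libraries over 3 inputs, 1 library per group. The submitters' processing notes name build mm9 and the tools Bowtie2, SAMtools and bedtools, the last as version 2.28.0. Per the values, the deposited files hold 315 bp fragments, a mapping quality score (column 5) and 2 counts (columns 7 and 8). The former count was taken as reporter and the latter as input. The labels do not say so, but column 8 was equal at all 5163548 positions shared by both pPGK files.

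A position listed on both strands carries the same counts on 2 lines, so each position was counted once. Positions with a mapping quality below 30 in any file were left out, because, by the deposited score, the authors had filtered some files and not others: in the SCP1 and pR-Ea files the lowest score was 30, while 64.1% of pPGK and 98.9% of PMA_I reporter reads reached 30. Both choices followed inspection of the files. The plan had been to count every listed fragment, now an alternative. Ratios used a pseudocount of 1. Called bins and the rules for calls are given with the results. SEs treat positions as independent. The rule for named bins took, in each locus, the bin nearest the coordinate, those with the highest and lowest ratio of PMA_I over pPGK, those with the highest and lowest mean activity over the 3 promoters, and every bin called in the first comparison. It named 24 bins. Other bins are named because they were called, or lie beside a called bin, and were chosen after their values were seen. The loci, lists and tests were chosen with earlier results of these data known.

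The scripts were tested on simulated data. Alternatives changed the quality filter, input minimum, bin size and offset, scaling, pseudocount, weight of single positions, window and fold threshold. Python 3.11.15, NumPy 2.4.6, pandas 2.3.3, SciPy 1.17.1 and Matplotlib 3.10.9 were used. Promoter sequences are from RefSeq, build GRCm38.p6.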

Additional observations from a re-analysis of the deposited data

Results flagged for a closer look

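In 3 bins of the Junb locus, activity with pR-Ea was at least 0.5 from 0 on one side of input and activity with another promoter at least 0.5 from 0 on the other, and the promoter difference was called. Called differences with a value nearer 0 on one side, such as those at 50.75 and 95.75 kb, are not counted here. Each value comes from 1 library per promoter, and the differences were not tested against replicates. By the rule for calls, 0 bins of the loci were called on opposite sides of input in 2 promoters. The share of all bins that meet the 0.5 limit was not computed, so the count does not set Junb apart. The limit also depends on the scaling. Scaled to all used reads, the all-bin median of pPGK activity went from 0.06 to -0.12. At 84.25 kb, activity was -0.53 with SCP1 and 0.70 with pR-Ea, a difference of 1.23. At 95.25 kb the SCP1 and pPGK values were 0.74 and 0.66 and the pR-Ea value -0.51, so pR-Ea differed by -1.26 from SCP1 and by -1.17 from pPGK. At 49.25 kb it was 0.65 with pPGK and -0.79 with pR-Ea, a difference of -1.45.

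Some reads of the 7 loci lay outside the comparisons of kept bins. Of used reporter reads, 27.64% with pPGK and 30.95% in PMA_I fell outside the bins that reached the input minimum, against 23.20% of their shared input. With pR-Ea, 2.604% of reporter reads in the loci were at positions left out for mapping quality, against 1.976% of its input.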

How the results depend on the processing

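No paired analysis was possible because each group had 1 library.

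The Fos bin at 5.25 kb ranged from 0.56 to 2.22 in log2 ratio of PMA_I over pPGK over the alternatives that held it, and lost its call in bins of 1000 bp (0.56) and by distinct positions (0.82). It was not tested with at least 100 input reads. In bins shifted by 250 bp its reads fell in a differently placed bin, and the only bin called higher was at Junb. The Junb bin at 0.75 kb ranged from 0.39 to 1.72 and lost its call by distinct positions alone (0.39). Bins higher in PMA_I numbered 6 without a quality filter, where the median of all bins was 0.45 and 6% of all bins were higher. They numbered 1 with at least 100 input reads, 1 in bins of 1000 bp, 1 in shifted bins and 0 by distinct positions. The shares of all bins there were 0.604%, 0.691%, 0.725% and 0.0334%. Bins lower numbered 1 without each bin's leading position, where 1.41% of all bins were lower. No call reversed.

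Counts of activity calls moved by over 1.5 times as follows, above input first. The loci had 106 bins with at least 20 input reads, 40 with at least 100 and 66 in bins of 1000 bp. They had 64 when shifted, 38 in windows of 50 kb, 68 without a quality filter and 70 with each listed fragment at its own midpoint. Other settings had 67. Shares of all bins moved too: below input with SCP1 were 15% with at least 20 input reads, 27.8% at 1.5-fold and 3.51% by distinct positions. The counts alone do not set these loci apart. With SCP1 they were 4 and 18 with at least 20 input reads, 0 and 4 with at least 100, 4 above in shifted bins, 5 above with the median set to 0, 1 above with a pseudocount of 10, 0 and 1 by distinct positions, 1 above in windows of 50 kb, and 12 and 18 at 1.5-fold. With pPGK they were 1 above without a quality filter, 3 and 4 with at least 20 input reads, 1 below with at least 100, 1 and 1 in bins of 1000 bp, 2 above without the leading position, 0 below by distinct positions, and 7 and 5 at 1.5-fold. In PMA_I they were 18 and 0 without a quality filter, 9 and 2 with at least 20 input reads, 0 above with at least 100, 2 below in shifted bins, 1 above with a pseudocount of 10, 2 below without the leading position, 0 and 0 by distinct positions, 12 and 5 at 1.5-fold, 4 above with each listed fragment at its own midpoint, and 0 and 4 scaled to all used reads. Without a quality filter, 27.3% of all bins were above input in PMA_I and 8.71% below, against 7.39% and 9.32% in the main setting. With at least 20 input reads these shares were 10.7% and 9.04%. With pR-Ea the counts were 4 below with at least 20 input reads, 1 below with at least 100, 0 below by distinct positions, 1 below in windows of 50 kb, and 5 and 11 at 1.5-fold.

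Promoter differences moved likewise, higher first. For pPGK against SCP1 they were 1 lower with the quality filter set per file, 8 and 1 without a filter, 10 and 4 with at least 20 input reads, 0 and 0 with at least 100, 4 lower in shifted bins, 3 higher with the median set to 0, 2 higher with a pseudocount of 10, 8 and 1 without the leading position, 3 and 1 by distinct positions, 2 and 1 in windows of 50 kb, 10 and 4 at 1.5-fold, 1 lower with each listed fragment at its own midpoint, and 2 and 4 scaled to all used reads. For pR-Ea against SCP1 they were 4 and 3 with at least 100 input reads, 3 lower in bins of 1000 bp, 1 and 1 by distinct positions, 4 and 2 in windows of 50 kb, and 17 and 14 at 1.5-fold. For pR-Ea against pPGK they were 0 higher without a filter, 5 and 13 with at least 20 input reads, 1 higher with at least 100, 1 higher in bins of 1000 bp, 0 higher with a pseudocount of 10, 0 and 1 by distinct positions, 6 higher at 1.5-fold, 1 higher with each listed fragment at its own midpoint, and 3 lower scaled to all used reads. Fewer or more bins were tested under other input minimums, bin sizes and windows. For the other settings the cause was not tested.

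Of the locus sums under all alternatives, 258 stayed inside the 95% counting interval of the reported value and 132 fell outside it, and of the values of the named bins 1176 and 278. The sign changed in 11 of the 258 sums and 44 of the 132. For the named bins it changed in 45 of the 1176 values and 71 of the 278. Depth limits the thin bins, and the Fos value rests on 42 pPGK reads.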
